A study of Bos taurus with 16 samples.

Results

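The 25 cytochrome P450 genes of families 1 to 4 that the array annotation names were compared between the livers of finishing and growing beef steers. They were taken as every gene whose single symbol reads CYP, a digit from 1 to 4 and then a letter, and they are 25 of 18010 named genes on the array. Family 1 has 3 members, family 2 has 16, family 3 has 1 and family 4 has 5, and each member is read by 1 probe set, a group of short probes summarised into 1 signal. A further 2 probe sets carried 2 P450 symbols each and name no single gene. The one with CYP3A symbols had a difference of 0.14 (adjusted p = 0.618) and the one with CYP4A symbols a difference of -0.067 (adjusted p = 0.813).

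The finishing group was 8 Angus steers taken to a final body weight of 576 kg, and the growing group 8 Angus steers taken to 301 kg. All animals began as weaned male steers of 209 ± 29.4 kg, were allotted to the phases at random, and each received a diet based on cotton seed hull, set for a gain of 1.5 kg per day, with a vitamin and mineral supplement. Body weight, age and time on feed therefore differ together between the groups and cannot be told apart. Each steer gave 1 liver RNA sample and 1 array.

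P450 enzymes of these families are haem proteins of the endoplasmic reticulum that insert an oxygen atom into drugs, plant compounds, steroids and fatty acids, with electrons passed on by the reductase POR. Hepatocytes make most of them, and in mouse and human liver many are strongest around the central vein. Families 1, 2, 3 and 4 are classically induced through the receptors AHR, NR1I3 (CAR), NR1I2 (PXR) and PPARA, although single members depart from that scheme.

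None of the 25 P450 genes passed the test between phases. By limma, 0 of 25 had an adjusted p under 0.05 and the smallest was 0.0963, whereas 8.36% of all genes passed, 2.7% higher and 5.66% lower in finishing steers. The share was 6.64% over all probe sets and 12.8% among genes with a signal above the median probe set mean of 5.595 in 1 group. An unadjusted p under 0.05 was reached by 6 members, or 24.0%, against 24.7% of all genes, so the members as a set stood close to that background. The exact rank-sum test called 0 members as well. Of the 6, CYP2C87 and CYP2D14 had higher signals in finishing steers, and CYP2C281, CYP2C88, CYP2U1 and CYP2C23 lower ones.

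Most differences in signal were small, and the intervals say how small. Over the 25 members 10 differences were positive and 15 negative, with a median of -0.058 on the log2 scale against 0.012 over all genes. For 19 members the difference was 0.25 or less in size, and the median size was 0.14, against 0.11 over all genes. The 95% confidence interval lay within 0.5 log2 units either way, a 1.41-fold change, for 15 members, and within 1 unit for 22. In 0 members were the 8 finishing animals clear of the 8 growing animals, which was so for 1.21% of all genes. For 20 members the signal was above the median probe set mean in at least 1 group. CYP1B1, CYP2C88, CYP4A22, CYP4B1 and CYP4F22 were not, and without detection calls a dim probe set cannot be told from an undetected transcript. CYP1B1, CYP4A22 and CYP4F22 are among the 15 members with an interval within 0.5 units. Their intervals bound the probe set signal and may not bound the transcript.

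**Figure D1:**
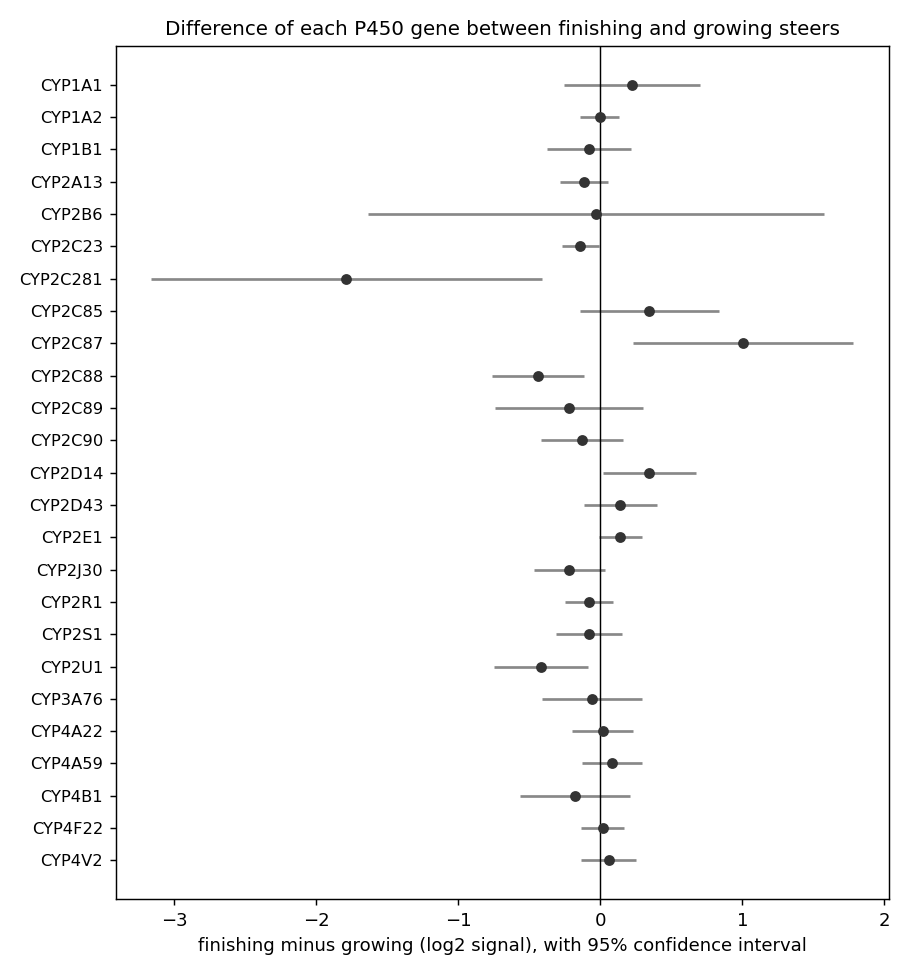
Difference between finishing and growing steers for each of the 25 P450 genes on the log2 signal scale, as points with 95% confidence intervals (limma, 8 animals per group). CYP2C281 at -1.79 and CYP2C87 at 1.01 lie farthest from 0, CYP2B6 has the widest interval, and 15 intervals stay within 0.5 either way.

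Family 1 enzymes oxidise flat aromatic compounds and are the best known targets of AHR. CYP1A1 had signals of 8.94, 9.71 and 10.6 in finishing steers (lowest, median and highest), against 9.01, 9.63 and 10.1 in growing steers. The groups overlapped, with 3 finishing animals above and 1 below all growing animals, and the difference was 0.23 ± 0.23 (SE, n = 8 per group; adjusted p = 0.618). CYP1A2, the hepatic enzyme that clears caffeine in humans, had a signal of 12.13 ± 0.13 in finishing and 12.13 ± 0.091 in growing steers (SD, n = 8 each). Its difference was -0.0023, with a 95% interval of -0.14 to 0.13. The dim CYP1B1, an enzyme of mostly non-hepatic tissues that also hydroxylates estrogens, had a difference of -0.078 ± 0.14 (adjusted p = 0.804).

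In the CYP2C subfamily the differences ran in both directions, 2 positive and 5 negative, from -1.79 to 1.01. CYP2C enzymes of other mammals oxidise drugs and arachidonic acid, but the substrates of the bovine members are not stated in the sources used here. CYP2C281 and CYP2C87 fall outside the rule for described genes and were singled out once their values were seen, as the members with the largest differences. CYP2C281 had signals of 3.60, 6.34 and 8.32 in finishing steers (lowest, median and highest), against 6.23, 8.05 and 9.19 in growing steers. Finishing replicates 1, 2, 4 and 5, at 3.88, 3.60, 4.72 and 5.42, lay below all growing animals, while the other 4, from 7.27 to 8.32, lay within the growing range. Those 4 low values are under the median probe set mean, where a dim signal cannot be told from an undetected transcript, so the size of the difference is uncertain. The difference was -1.79 ± 0.65 (SE, 3.45-fold lower; 95% interval -3.16 to -0.41), with an adjusted p of 0.114 and an unadjusted exact permutation p of 0.0298. No fit without 1 array brought CYP2C281 past the threshold, and its adjusted p ran from 0.0611 to 0.194.

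CYP2C87 went the other way. Its signals were 6.11, 7.55 and 9.05 in finishing steers, against 5.69, 6.58 and 7.64 in growing steers, and 7 of 8 finishing animals exceeded the growing median. The 3 highest finishing animals, replicates 5, 4 and 8, exceeded all growing animals, and finishing replicate 3 held the lowest finishing value. The difference was 1.01 ± 0.37 (2.01-fold; 95% interval 0.23 to 1.78; adjusted p = 0.114, unadjusted exact permutation p = 0.0283). Without finishing replicate 3 the difference was 1.22 and the adjusted p 0.0324. The other 15 fits without 1 array did not pass (adjusted p up to 0.2).

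CYP2C88 had the smallest adjusted p of the 25, at a signal level near the bottom of the scale. It had 3.36 to 4.05 in finishing steers, against 3.43 to 4.53 in growing steers, with 7 of 8 finishing animals below the growing median. The difference was -0.44 ± 0.15 (adjusted p = 0.0963, unadjusted exact permutation p = 0.0204), and without growing replicate 4 it was -0.52 (adjusted p = 0.0357). CYP2C88 did not pass in the other 15 fits without 1 array (adjusted p up to 0.174). CYP2C23, which forms epoxides of arachidonic acid in rodents, had a small difference in narrow groups. It read 12.50, 12.68 and 12.72 in finishing and 12.51, 12.82 and 12.89 in growing steers. All 8 finishing animals lay below the growing median, and the difference was -0.14 ± 0.063 (adjusted p = 0.208).

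The other CYP2C members did not approach the threshold. CYP2C89 read 10.81, 11.01 and 11.72 in finishing and 9.91, 11.37 and 12.23 in growing steers, so the finishing values lay inside the growing range. Its difference was -0.22 ± 0.25 (adjusted p = 0.661). CYP2C85 had a difference of 0.35 ± 0.23 and CYP2C90 one of -0.13 ± 0.14 (adjusted p = 0.421 and 0.636). In RefSeq's order of genes on assembly ARS-UCD2.0, CYP2C90, CYP2C87, CYP2C85, CYP2C88, CYP2C89 and CYP2C281 follow each other with 0 other protein-coding genes between them. Along that row the differences read -0.13, 1.01, 0.35, -0.44, -0.22 and -1.79, and 2 of the 5 adjacent pairs, CYP2C90 with CYP2C87 and CYP2C85 with CYP2C88, differed in sign. The probe sequences were not used here, and cross-hybridisation between such close relatives was not tested.

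**Figure D2:**
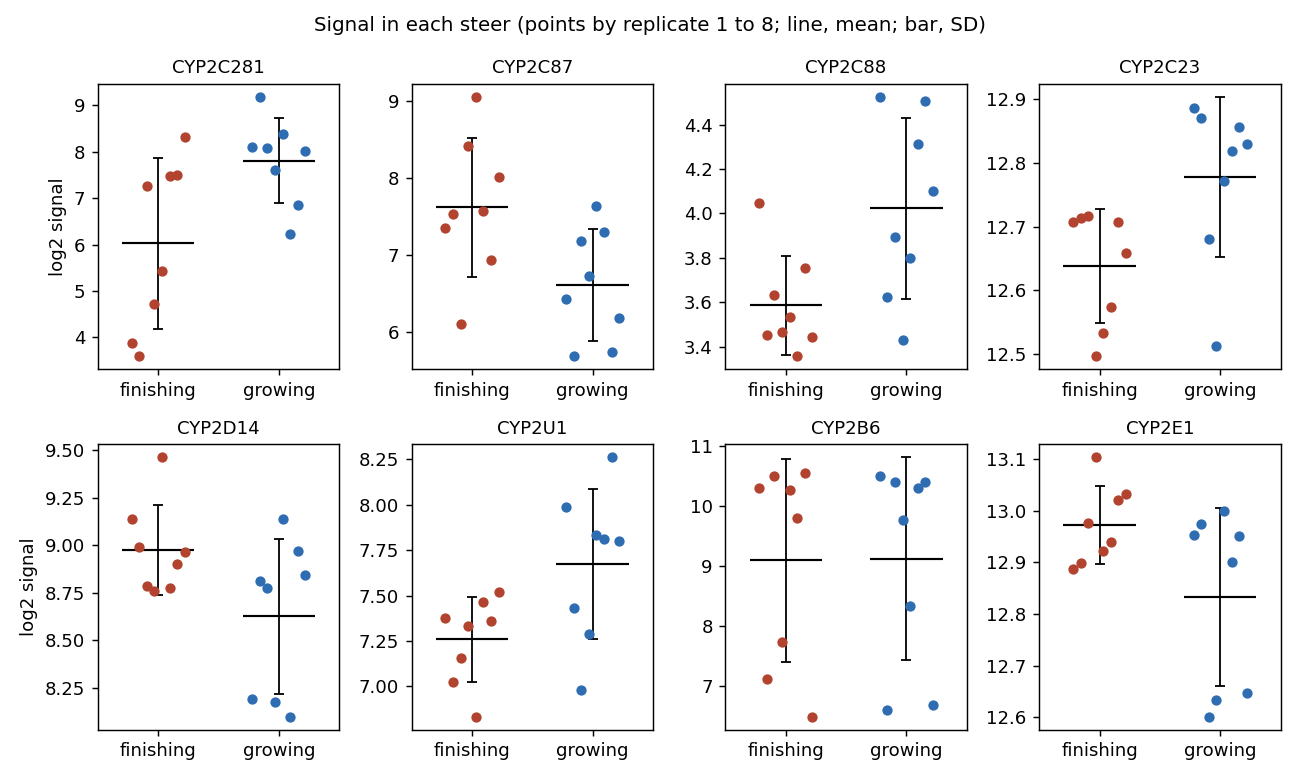
Log2 signal in each of 8 finishing and 8 growing steers for the 6 P450 genes with an unadjusted p under 0.05 and for CYP2B6 and CYP2E1, with the group mean as a line and the SD as a bar. Each panel has its own vertical scale. In CYP2C281 4 finishing animals lie below all growing animals, and in CYP2B6 3 finishing animals lie at 6.48 to 7.72 below the other 5, with growing animals at 6.59, 6.67 and 8.34 below their other 5.

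CYP2B6, a classical target of NR1I3 that metabolises several drugs in humans, did not separate the phases but differed widely between animals within each. In finishing steers replicates 2, 4 and 8 read 7.11, 7.72 and 6.48 while the other 5 read 9.81 to 10.6. In growing steers replicates 2 and 8 read 6.59 and 6.67, replicate 5 lay between at 8.34, and the other 5 read 9.76 to 10.5. The means were 9.10 ± 1.70 in finishing and 9.12 ± 1.69 in growing steers (SD, n = 8 each). The difference was -0.029 with a 95% interval of -1.63 to 1.57. CYP2A13 and CYP2S1, which stand near CYP2B6 in the RefSeq gene table with 2 and 0 other protein-coding genes between, spanned a narrower range. Across all 16 animals CYP2B6 spanned 4.08 log2 units (17.0-fold), CYP2A13 0.57 and CYP2S1 1.03.

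CYP2A13 belongs to a subfamily that hydroxylates coumarin and nicotine in humans. It had a difference of -0.12 ± 0.081 (adjusted p = 0.438), with signals of 12.36 to 12.75 in finishing and 12.35 to 12.91 in growing steers. CYP2S1, a mostly extrahepatic enzyme in humans, had a difference of -0.080 ± 0.11 (adjusted p = 0.736).

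CYP2D14 and CYP2D43 are neighbours of the CYP2D subfamily, whose human member clears many basic drugs. CYP2D14 read 8.76, 8.93 and 9.46 in finishing steers and 8.10, 8.80 and 9.14 in growing steers. Growing replicates 1, 4 and 6, at 8.19, 8.18 and 8.10, lay below all finishing animals. The difference was 0.35 ± 0.15 (adjusted p = 0.201, unadjusted exact permutation p = 0.0662). CYP2D43 had a difference of 0.14 ± 0.12 (adjusted p = 0.55), and its SD was 0.13 in finishing and 0.34 in growing steers.

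CYP2E1 oxidises ethanol, acetone and other small molecules, and in other species it follows fasting and ketosis. It read 12.89, 12.96 and 13.10 in finishing steers, against 12.60, 12.93 and 13.00 in growing steers. Growing replicates 3, 4 and 8, at 12.60, 12.63 and 12.65, stood below the rest. The difference was 0.14 ± 0.072 (95% interval -0.011 to 0.29; adjusted p = 0.273).

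CYP2U1, a fatty acid hydroxylase, read 6.83, 7.35 and 7.52 in finishing steers, against 6.98, 7.81 and 8.26 in growing steers. All 8 finishing animals lay below the growing median, yet the groups overlapped through growing replicates 2, 3 and 4. The difference was -0.42 ± 0.16 (adjusted p = 0.124, unadjusted exact permutation p = 0.0289), and without growing replicate 3 it was -0.52 (adjusted p = 0.0307). CYP2U1 did not pass in the other 15 fits without 1 array (adjusted p up to 0.216). CYP2J30, of a subfamily that makes epoxides of arachidonic acid, also had all 8 finishing animals below the growing median. It read 5.73, 6.46 and 6.66 in finishing and 6.30, 6.69 and 6.82 in growing steers, a difference of -0.22 ± 0.12 (adjusted p = 0.31). CYP2R1, the liver enzyme that makes the circulating form of vitamin D, had a difference of -0.077 ± 0.080 with a 95% interval of -0.25 to 0.091.

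CYP3A76 was the single family 3 member, of the subfamily that handles the widest range of drugs and steroids in human liver. It read 11.57, 12.25 and 12.45 in finishing steers and 11.29, 12.31 and 12.67 in growing steers. The lowest value of each group stood apart, finishing replicate 3 and growing replicate 4. The difference was -0.058 ± 0.17 (95% interval -0.41 to 0.29; adjusted p = 0.881).

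Family 4 enzymes hydroxylate the tail end of fatty acids, and the CYP4A genes are textbook targets of PPARA. CYP4A59 read 7.79, 8.02 and 8.16 in finishing and 7.62, 7.90 and 8.41 in growing steers, with a difference of 0.081 ± 0.10 (adjusted p = 0.7). CYP4A22 was dim, between 3.01 and 3.71 over the 16 animals, with a difference of 0.019. CYP4V2, whose loss in humans causes a retinal lipid disorder, had a difference of 0.059 ± 0.092 (95% interval -0.13 to 0.25; adjusted p = 0.766). CYP4F22, a skin ceramide enzyme in humans, was dim in both groups, at 3.95 ± 0.14 in finishing and 3.94 ± 0.13 in growing steers (SD, n = 8 each). CYP4B1 had a difference of -0.18 ± 0.18 (adjusted p = 0.627), which rested on growing replicate 4. That animal read 5.50 against 3.79 to 4.29 in the other 7, and without it the difference was 0.0013.

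**Figure D3:**
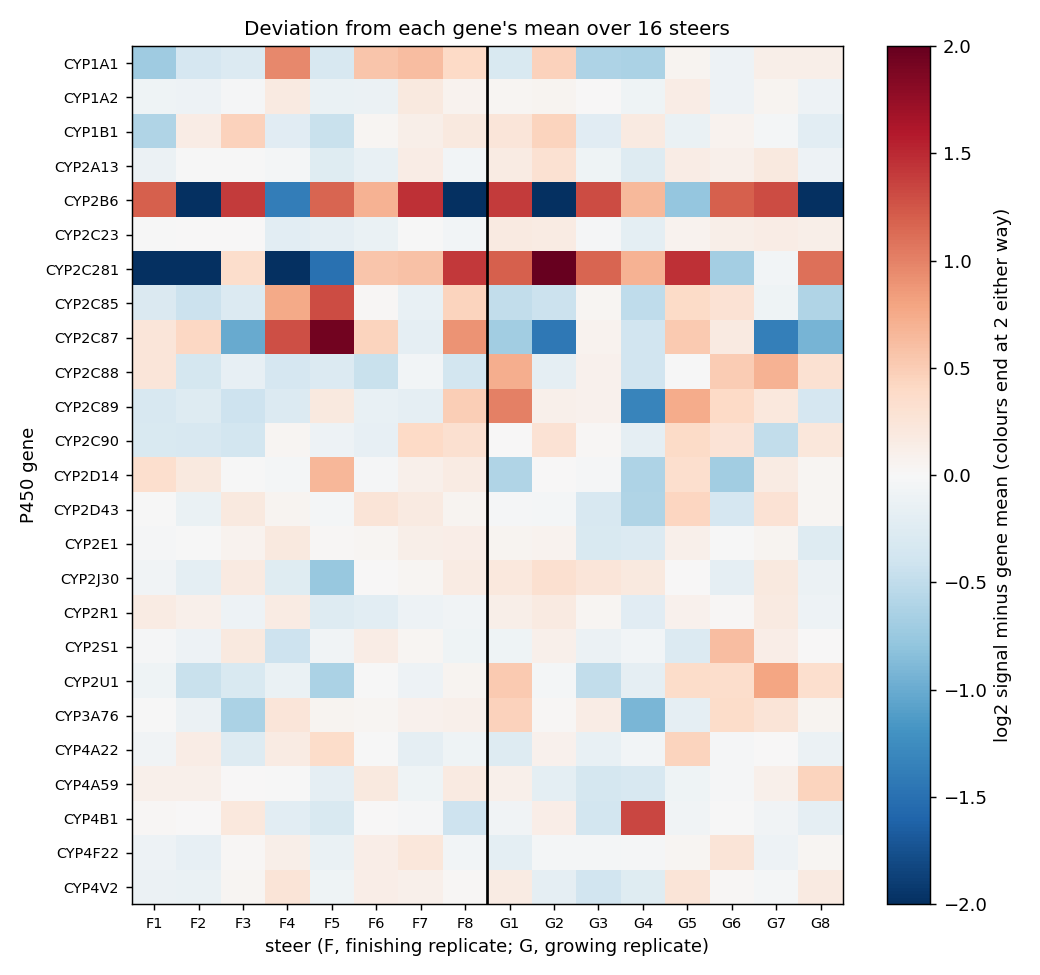
Log2 signal of each P450 gene in each steer minus that gene's mean over the 16 steers, with finishing steers (F1 to F8) left of growing steers (G1 to G8). The CYP2C281 row passes the end of the colour scale, 2 units either way, in both directions and the CYP2B6 row at the low end, while the CYP1A2, CYP2C23 and CYP2E1 rows are nearly flat.

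Animals of 1 phase differed more in some P450 genes than in almost any other gene, and less in others. The within-group SD had a median of 0.29 over the 25 members and 0.18 over all genes. For 11 members it exceeded 0.31, the 90th percentile of all genes, and for 6 members it was below the genes' median. CYP2B6 ranked 3rd of 18010 genes with an SD of 1.69, and CYP2C281 ranked 8th with 1.45. CYP2C87 followed with 0.82, CYP2C89 with 0.55, CYP2C85 with 0.51 and CYP1A1 with 0.50. At the other end CYP2C23 had an SD of 0.109 and CYP1A2 one of 0.115, larger than in 8.56% and 10.8% of genes. These SDs are a description of 8 animals per group with no test.

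**Figure D4:**
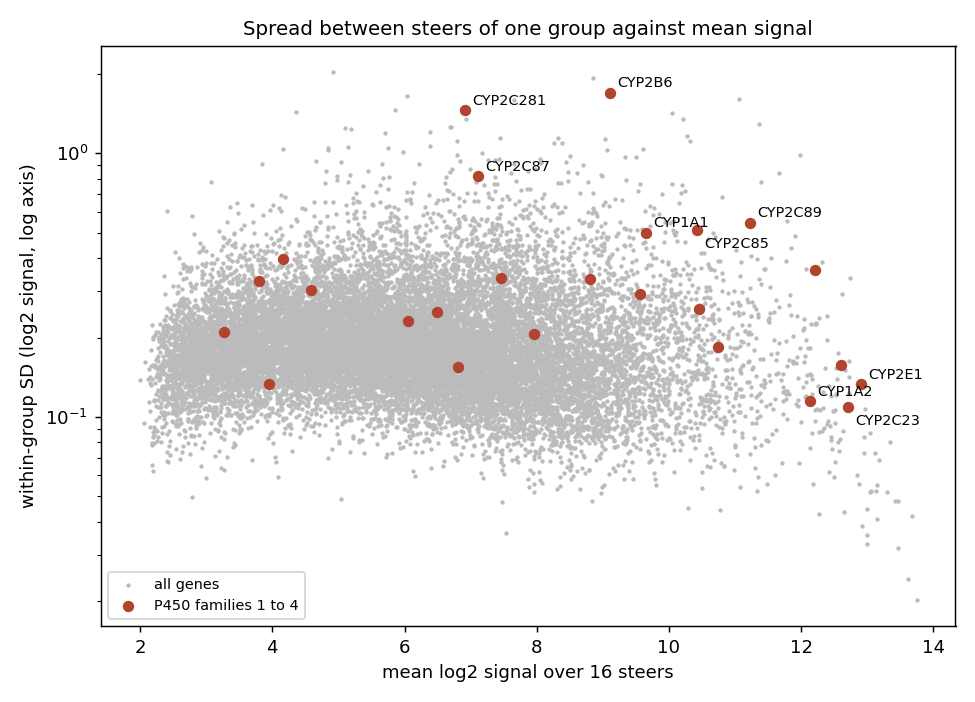
Within-group SD of the log2 signal (vertical, log axis) against the mean log2 signal over 16 steers (horizontal) for 18010 genes in grey and the 25 P450 genes in red. CYP2B6 at 1.69 and CYP2C281 at 1.45 lie near the top of the cloud, and CYP2C23 at 0.109 and CYP1A2 at 0.115 lie low.

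The direction of the spread also varied by gene. The SD was larger in finishing steers for 10 members and larger in growing steers for 15, whereas 38.9% of all genes had the larger SD in growing steers. CYP2C281 had an SD of 1.84 in finishing and 0.92 in growing steers. CYP2C89 had 0.30 in finishing and 0.71 in growing steers. The difference in spread was not tested.

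Members were also compared with each other across the animals of each phase. CYP2B6 was left out because its animals fall into separate clusters. CYP2C281 was kept, although its finishing replicates 1, 2, 4 and 5 also lay apart from the others, and that split enters its correlations there. Over 24 genes, 276 pairs in 2 groups gave 552 correlations. Of these 0 passed Benjamini-Hochberg adjustment and 46 had an unadjusted exact permutation p under 0.05. Chance alone would put about 1 in 20 of the correlations under that unadjusted threshold. The smallest adjusted p was 0.24 for Pearson's r and 0.219 for Spearman's rho. Among the 5 pairs with the strongest Pearson's r of 1 sign in both groups, CYP2C89 with CYP4B1 ranked highest. CYP2C85 with CYP2C87, CYP3A76 with CYP4B1, CYP2U1 with CYP4A59 and CYP2D43 with CYP4V2 followed. CYP2C89 with CYP4B1 had an r of -0.88 (rho = -0.79) in finishing and -0.74 (rho = -0.024) in growing steers. Without the 2 animals farthest from the CYP2C89 median r was -0.52 in finishing and 0.29 in growing steers. For CYP3A76 with CYP4B1 r in growing steers was -0.85 (rho = -0.43). It was -0.066 there without the 2 animals farthest from the CYP3A76 median. Of the 5 pairs only CYP2C85 and CYP2C87 are neighbours. Their r was 0.85 in finishing steers (exact permutation p = 0.00551, adjusted p = 0.338; rho = 0.79, p = 0.0279, adjusted p = 0.691; n = 8). In growing steers r was 0.71 (exact permutation p = 0.0603, adjusted p = 0.598; rho = 0.62, p = 0.115, adjusted p = 0.725; n = 8). Without the 2 animals farthest from the CYP2C85 median it was 0.54 in finishing and 0.26 in growing steers.

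The genes that serve or switch the P450 system were read beside the members, in 6 lists of 94 genes of which 82 were measured. Of the 82, 1 rose and 12 fell in finishing steers, with the background as above. Among electron transfer partners and epoxide hydrolases 0 of 13 rose and 1 fell, with a median difference of -0.037. That gene was PGRMC2, a membrane haem-binding protein, with a difference of -0.25 ± 0.062 (adjusted p = 0.0224). POR, the P450 reductase, read 9.38, 10.11 and 10.36 in finishing steers, against 10.05, 10.47 and 10.56 in growing steers, and all 8 finishing animals lay below the growing median. Its difference of -0.37 ± 0.12 had an adjusted p of 0.0807, and 0.0483 without growing replicate 4. POR did not pass in the other 15 fits without 1 array (adjusted p up to 0.141). In haem synthesis and breakdown 0 of 13 rose and 1 fell, with a median of -0.025. BLVRB, a biliverdin reductase, read 8.39 to 8.88 in finishing steers, below 8.92 to 9.47 in growing steers with no overlap, and fell by 0.42 ± 0.086 (adjusted p = 0.00943).

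Receptors and transcription factors that act on P450 genes had 6 of 24 members lower and 0 higher, with a median of -0.17. Over all genes 5.66% were lower and 2.7% higher, with a median of 0.012. Of these factors only AHRR and FOXA2 were not above the median probe set mean in either group. Among all genes above it 12.8% were called, higher or lower. AHR read 8.32, 8.75 and 9.39 in finishing steers, against 9.25, 9.32 and 9.80 in growing steers. Only finishing replicate 5 reached the growing range. AHR fell by 0.70 ± 0.14 (1.62-fold; adjusted p = 0.00954), beside differences of 0.23, -0.0023 and -0.078 in CYP1A1, CYP1A2 and CYP1B1. The exact rank-sum test left AHR just short of the threshold (adjusted p = 0.0522). NR1I3 had a difference of -0.53 ± 0.19 (adjusted p = 0.108), with 4 finishing animals below all growing animals. NR1I2 had one of -0.40 ± 0.22 (adjusted p = 0.314), and PPARA one of 0.029 ± 0.087 (95% interval -0.15 to 0.21).

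The other 5 factors that fell were ONECUT1, a hepatocyte homeobox factor (-0.75 ± 0.21), HLF, a clock-controlled factor (-0.74 ± 0.19), NR3C1, the glucocorticoid receptor (-0.36 ± 0.094), STAT5B, which carries growth hormone signals (-0.36 ± 0.10), and NFE2L2, the oxidant response factor (-0.34 ± 0.090). Their adjusted p-values were 0.0361, 0.0273, 0.0268, 0.0402 and 0.0327. Leaving out single arrays ended the ONECUT1 call in 10 of 16 fits (highest adjusted p = 0.0723) and the STAT5B call in 11 (0.0782). It ended the NR3C1 call without growing replicates 1, 2 or 7 or finishing replicates 5 or 8 (0.0554), the NFE2L2 call without growing replicates 2, 6 or 8 or finishing replicates 2 or 4 (0.0666), and the HLF call without growing replicates 2, 6 or 7 or finishing replicate 6 (0.0569). For ONECUT1 the call held only without growing replicate 4 or finishing replicates 1 to 5, and for STAT5B only without growing replicates 3 or 6 or finishing replicates 1, 3 or 4. Finishing replicate 5 held the lowest of the 16 values for 10 of the 17 regulators, partners and targets described here and for 4 of the 25 P450 genes. Growing replicate 4 also held the lowest value for 4 of the 25 P450 genes, and for 0 of the 17. Of the 17 genes, 12 were called lower in finishing steers, which by itself favours a lowest value in a finishing array. The P450 genes were not chosen by direction, so these counts are not like for like. Finishing replicates 5 and 6 had the lowest mean correlations with their group, 0.978 and 0.982, against 0.982 to 0.988 for the other 14 arrays. Without both of them none of these 5 factors passed (adjusted p from 0.0545 for HLF to 0.134 for STAT5B), with differences of -0.53 for HLF, -0.52 for ONECUT1, -0.28 for NR3C1 and STAT5B and -0.27 for NFE2L2. PGRMC2, at a difference of -0.23, did not pass either (adjusted p = 0.0713), while AHR and BLVRB still did.

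**Figure D5:**
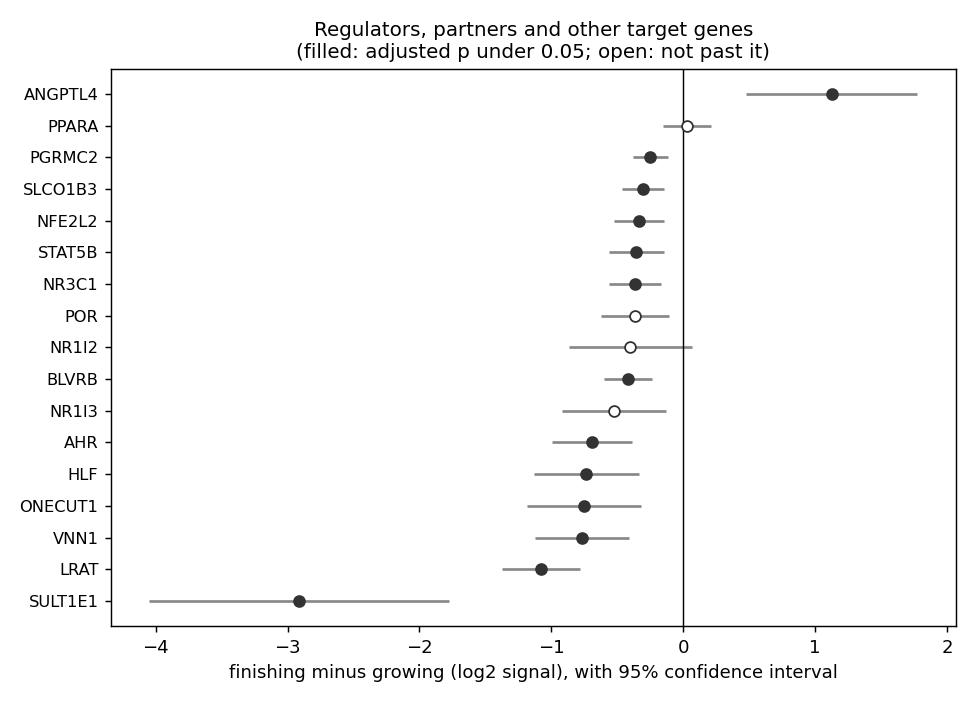
Differences between finishing and growing steers on the log2 scale with 95% confidence intervals for the described regulators, partners and target genes. Filled points passed an adjusted p of 0.05 and open points did not. AHR at -0.70 is filled, and POR, NR1I3, NR1I2 and PPARA are open.

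Among other target genes of the same receptors, of 7 measured AHR targets 0 rose and 2 fell, against 2.7% and 5.66% of all genes. The 2 were LRAT, also a stellate cell marker, and NFE2L2, counted among the factors above. The median over the 7 AHR targets was 0.047. LRAT fell by 1.08 ± 0.14 (adjusted p = 0.000996), with all 8 finishing animals below all growing animals. Of 11 NR1I2 and NR1I3 targets 0 rose and 2 fell, with a median of -0.25. SULT1E1, estrogen sulfotransferase, differed by -2.91 ± 0.54, and SLCO1B3, an organic anion uptake carrier, by -0.30 ± 0.076 (adjusted p = 0.00504 and 0.0231). The SULT1E1 signal in finishing steers, 3.53 to 5.19, was under the median probe set mean, so the size of its difference is uncertain. Without finishing replicates 5 and 6 the SLCO1B3 difference was -0.27 (adjusted p = 0.059). Of 18 PPARA targets 1 rose and 1 fell, with a median of 0.055. VNN1, pantetheinase, fell by 0.77 ± 0.17 (adjusted p = 0.0134). ANGPTL4, a lipase inhibitor, rose by 1.13 ± 0.31 (adjusted p = 0.0356), but with finishing replicates 5 and 6 left out its difference was 0.74 and its adjusted p 0.0833. Of the 16 fits that each drop 1 array, 8 ended its call, those for finishing replicates 6 and 8 and for growing replicates 1, 2, 5, 6, 7 and 8 (adjusted p at most 0.0721).

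Liver markers were in place in both groups. The mean signal of 12 hepatocyte markers was 12.9 to 13.0 in finishing and 12.6 to 13.1 in growing steers, with 1 marker higher and 1 lower. Of 12 pericentral markers without P450 genes 1 was higher and 2 lower, AHR among them, and their mean signal was 7.23 to 7.53 in finishing and 7.26 to 7.61 in growing steers. Of 9 periportal markers 5 were higher and 0 lower, at 9.25 to 9.99 in finishing and 8.69 to 9.30 in growing steers. Among markers of other cells, those called lower were 7 of 8 for stellate cells and 5 of 10 for T and NK lymphocytes. They were 4 of 10 for macrophages and 2 of 8 for endothelium, with 0 higher in each. Over all genes 5.66% were called lower and 2.7% higher. Of 6 cholangiocyte and 5 erythroid markers 0 were called. In whole liver, fewer cells of a type and less RNA per cell cannot be told apart, and the part of these shifts in the values above was not tested.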

How the data were processed

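Liver RNA of 16 steers was labelled as biotin cRNA primed with oligo(dT), per the labels' protocols. GCOS 1.2 and Partek 6.4 are listed in the submitters' processing notes, with no step given for either. Each deposited value is a log2 signal, judging by the range of 1.48 to 14.1, and array medians of 5.57 to 5.64 place them on a common scale. The authors' normalisation is not stated there. The table holds no detection calls, dates or batches, and its arrays limit precision through their number. Correlations between arrays were 0.974 to 0.988 in finishing and 0.982 to 0.990 in growing steers, and 0 arrays were identical.

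Of 26773 probe sets, 18457 carried 1 symbol, 688 several and 7628 none in the platform annotation, on which every name rests. The 25 P450 genes all matched the RefSeq table by gene ID, with 0 symbols changed. Where a gene had several probe sets, the one of highest mean stood for it. Finishing minus growing was tested over all probe sets by 2-sided limma (version 3.58.1, R version 4.3.3, lmFit then eBayes). Benjamini-Hochberg adjusted p-values under 0.05 counted as calls, and each difference carries the SE of that fit. Exact permutation tests ran over 12870 arrangements of the arrays, and correlations over 40320 pairings, both 2-sided. The fit was also run on simulated data with independent normal values. Those lack the split signals of genes such as CYP2B6, and no result above rests on them.

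The members and lists were chosen with earlier results of these data known. Every P450 gene is named. Values go to members past the threshold, the 8 with the highest mean and the one with the smallest p of each subfamily. From the other lists they go to up to 6 genes past the threshold and to POR, AHR, NR1I2, NR1I3 and PPARA. Sequences were not used here. Alternatives were other scalings, variance models, filters, probe set choices, an exact rank-sum test, a replicate block, a threshold of 0.01 and fits without arrays.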

Additional observations from a re-analysis of the deposited data

Results flagged for a closer look

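Among 50 combinations of a P450 gene and a group of 8 animals, 5 had 1 animal whose gap to the next exceeded Dixon's 95% critical value as a share of the group's range. Chance alone flags about 1 in 20 such groups. In finishing steers CYP2J30 was 5.73 in replicate 5, with the next animal at 6.25, and CYP3A76 was 11.57 in replicate 3, with the next at 12.09. In growing steers CYP2S1 was 6.68 in replicate 6, with the next at 6.19, CYP3A76 was 11.29 in replicate 4, with the next at 12.03, and CYP4B1 was 5.50 in replicate 4, with the next at 4.29.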

How the results depend on the processing

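The count of P450 genes past the threshold was 0 under every other scaling, variance model, filter, probe set choice and test run on all 16 arrays. It was also 0 without finishing replicates 5 and 6. Each member has 1 probe set, so the probe set choices could not change its signal. The filter on signal above the median kept only 20 members and dropped CYP2C88, which had the smallest adjusted p. Without single arrays the count was 0 to 1 (0 to 1 higher and 0 to 1 lower): CYP2C87 without finishing replicate 3, CYP2C88 without growing replicate 4 and CYP2U1 without growing replicate 3. An unadjusted p under 0.05, added after seeing the data, gave 6, of which 2 higher and 4 lower, and 5774 probe sets. The 1777 probe sets called became 910 with the replicate block, 431 at an adjusted p under 0.01, 942 without finishing replicates 5 and 6, 875 when growing replicate 4 was left out as well (added after seeing the data), and 1282 to 2205 without single arrays. Replicate numbers did not pair the steers: deviations of same-numbered animals correlated by -0.15 to 0.041, with 0 of 8 pairs over 0.1 and 1 of 8 animals correlating best with its own number. The block ended the calls of ONECUT1, HLF, NR3C1, STAT5B, NFE2L2, PGRMC2, SLCO1B3 and ANGPTL4. The exact rank-sum test ended those of AHR (adjusted p = 0.0522), STAT5B and ONECUT1. POR passed when only probe sets above the median signal were tested (adjusted p = 0.0475). No scaling moved the median of all genes by as much as 0.1. Signs turned in 8 P450 genes and PPARA, none of which passed the test, and the causes of these changes in counts, calls and signs were not tested. CYP1A2 was 0.012 with array weights, 0.039 without finishing replicates 5 and 6, and 0.028 without growing replicate 4 as well. CYP4A22 was -0.030 after quantile normalisation, -0.0056 with array weights, -0.038 without finishing replicates 5 and 6 and -0.045 without growing replicate 4 as well. CYP4F22 was -0.026 after quantile normalisation, and CYP4B1 was 0.021 without growing replicate 4 and finishing replicates 5 and 6. Without single arrays CYP1A2 ran from -0.030 to 0.020, CYP1B1 from -0.15 to 0.0023, CYP2B6 from -0.39 to 0.34, CYP2S1 from -0.13 to 0.0030, CYP3A76 from -0.19 to 0.029, CYP4A22 from -0.033 to 0.084, CYP4B1 from -0.24 to 0.0013, CYP4F22 from -0.014 to 0.054 and PPARA from -0.015 to 0.081.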
